A study of Mus musculus with 5 samples.

Results

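The potassium channel genes were taken as every gene whose symbol starts with Kcn among the probe sets that the platform annotation ties to a single gene, with each gene read from its probe set of highest mean signal over the 5 arrays. There were 84 such genes, on 167 probe sets, of 18193 genes in all. The arrays carried RNA from 4 mouse medulloblastomas, tumours of the cerebellum, and from 1 P5 mouse cerebellum, P5 being taken as postnatal day 5. The series title concerns tumours of Cxcr6 mutant mice and a Smoothened inhibitor. The labels of the single arrays give tissue alone, with no genotype, strain or treatment, and no age for the tumours, so the comparison made was of the tumours with the cerebellum, and tissue and age cannot be told apart in it. The titles of medulloblastomas 1 and 2 start with ken, and those of medulloblastomas 3 and 4 and of the cerebellum with hmk. Nothing in the labels says whether the tumours came from separate animals, so the p-values measure the spread between these arrays.

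Potassium channels let potassium leave or enter cells and so set the resting voltage and the shape and spacing of action potentials. Voltage-gated channels are tetramers of alpha subunits, some of which are silent alone and modify others, and they bind auxiliary subunits. Inward rectifiers, tandem-pore leak channels and channels opened by calcium or sodium act near rest or after spikes. In the cerebellum, granule neurons, Purkinje cells, interneurons and glia each use their own set of these genes, and immature granule neurons acquire several of them as they mature. The symbol rule also took in genes that encode no channel: Kcnq1ot1, an imprinted non-coding RNA that lies across Kcnq1, and the antisense RNAs Kcnmb4os1 and Kcnmb4os2.

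The promoters of 4 genes are shown because the results turn on them: Kcne1l, the member that passed the test, Kcnj6 and Kcnj9, channel partners on opposite sides of the cerebellum, and Kcnc1, one of the genes at least 2-fold higher in medulloblastoma 1 than in each other tumour. Each window runs from 250 bases before to 50 bases after a RefSeq start site on GRCm38.p6, 5′ to 3′ on the gene's strand. They lie at chrX:142306149-142306448 (minus strand), chr16:94997647-94997946 (minus strand), chr1:172329273-172329572 (minus strand) and chr7:46396218-46396517 (plus strand). Capitals mark a GC box (GGGCGG or its reverse complement CCGCCC) or an E-box (CAGCTG), motifs bound by Sp factors and by basic helix-loop-helix factors.
Kcne1l: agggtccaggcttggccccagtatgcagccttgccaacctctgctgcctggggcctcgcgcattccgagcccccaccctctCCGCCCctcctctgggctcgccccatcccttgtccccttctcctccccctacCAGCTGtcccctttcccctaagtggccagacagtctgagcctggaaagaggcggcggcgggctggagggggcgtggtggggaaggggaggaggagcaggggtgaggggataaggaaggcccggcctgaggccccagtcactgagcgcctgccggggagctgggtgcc
Kcnj6: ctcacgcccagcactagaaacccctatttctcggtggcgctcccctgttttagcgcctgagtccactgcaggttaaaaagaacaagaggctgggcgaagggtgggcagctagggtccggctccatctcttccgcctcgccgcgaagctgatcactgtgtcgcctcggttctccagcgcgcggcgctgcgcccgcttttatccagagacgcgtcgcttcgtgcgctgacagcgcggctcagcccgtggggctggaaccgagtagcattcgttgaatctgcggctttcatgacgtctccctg
Kcnj9: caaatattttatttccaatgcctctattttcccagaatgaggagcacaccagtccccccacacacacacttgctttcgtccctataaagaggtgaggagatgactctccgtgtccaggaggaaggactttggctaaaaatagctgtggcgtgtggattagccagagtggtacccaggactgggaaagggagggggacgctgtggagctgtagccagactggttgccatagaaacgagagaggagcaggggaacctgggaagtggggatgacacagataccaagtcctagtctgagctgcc
Kcnc1: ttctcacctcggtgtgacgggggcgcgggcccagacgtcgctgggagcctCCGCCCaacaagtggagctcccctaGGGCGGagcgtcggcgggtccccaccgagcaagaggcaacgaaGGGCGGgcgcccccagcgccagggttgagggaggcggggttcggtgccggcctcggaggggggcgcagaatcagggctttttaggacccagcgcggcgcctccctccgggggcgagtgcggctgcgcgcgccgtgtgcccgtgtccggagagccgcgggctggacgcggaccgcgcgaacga
The Kcne1l window held 1 GC box and 1 E-box, the Kcnc1 window held 3 GC boxes and no E-box, and neither motif was in the windows of Kcnj6 and Kcnj9. For Kcnj6 the table lists 2 start sites, and the first is shown. Kcnc1 was the richest in G and C, at 74.7%, against 69.7% for Kcne1l, 62% for Kcnj6 and 52.3% for Kcnj9. RefSeq windows were matched for 44 of the 57 genes tested below, 63 windows in all, with a median of 59.7% G and C against 52.7% over all 32851 windows of the same length. A GC box on either strand was in 44.4% of the 63 windows and in 35.7% of all windows, and the E-box, which reads the same on both strands, in 23.8% and 16.3%. The site of the Gli factors of Hedgehog signalling (GACCACCCA, either strand) was in 0 of the 63 windows and in 0.253% of all. Motifs were searched separately, and a match describes letters in the window only.

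Of the 84 genes, 57 had a mean signal of at least 100 over the 5 arrays and were tested with limma among 14109 genes. Signals are linear intensities, and differences are of log2(signal + 32), tumours minus cerebellum, with the standard error of the fit. For 46 of the 57 both the tumour mean and the cerebellum were at 100 or more. Kcnip2, Kcnj15, Kcnv2 and Kcnk16 reached the mean with tumours averaging under 100, and Kcne4, Kcnj9, Kcnj4, Kcna7, Kcnk13, Kcnk3 and Kcnk12 with a cerebellum under 100. As the RNA is of whole tissue, fewer cells of a type and less RNA per cell cannot be told apart.

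In this fit Kcne1l was lower in the tumours and no channel gene was higher at an adjusted p under 0.05, beside 0.177% of all genes called lower and 0.312% called higher. At an unadjusted p under 0.05 the channel genes numbered 1 higher and 9 lower, beside 7.72% and 7.44% of all genes. A gene at least 2-fold above the cerebellum in each of the 4 tumours was found once (Kcnj9; 2.83% of all genes), and a gene at least 2-fold below in each of them 3 times (Kcne1l, Kcnj6 and Kcnk16; 3.15% of all genes). Of these, Kcnk16 passed the minimum only through the cerebellum and Kcnj9 only through the tumours. All 4 tumours lay above the cerebellum for 5 genes (25.1% of all genes) and below it for 19 (30.8%), and for 33 the tumours fell on both sides. The median difference was -0.16 over the 57 genes and -0.07 over all genes tested, and by tumour the channel medians were -0.05, -0.06, -0.52 and -0.27 in medulloblastomas 1 to 4. Where a gene had at least 2 probe sets with a mean of 100 or more, as for 26 genes, the signs of their differences disagreed for 14. Of the 57 differences 23 were positive and 34 negative; after scaling each array to 1 common median (all-gene median then 0.12) they were 29 and 28. The cerebellum has no replicate, so the fit takes its spread from the tumours, and an exact permutation of 4 arrays against 1 cannot go below a p of 0.2.

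**Figure D1:**
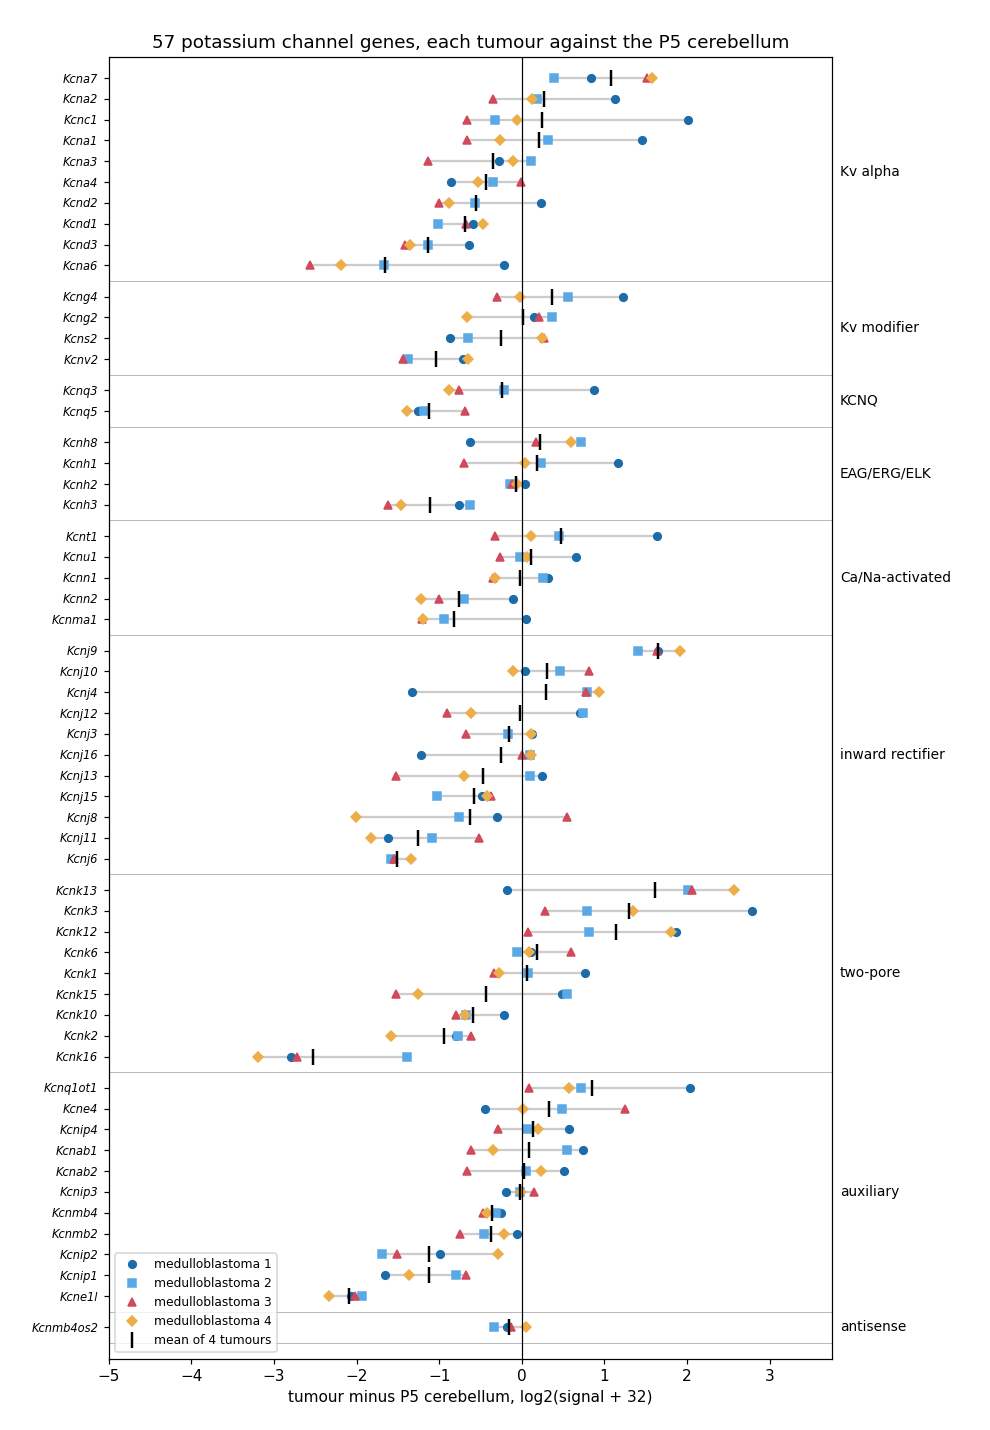
Log2 differences of the 57 genes tested, each tumour minus the P5 cerebellum (x axis, on the log2(signal + 32) scale), by class of channel; coloured points are tumours, black ticks their mean, and grey lines the range. The 4 points of Kcnj9 lie right of 0 and those of Kcne1l and Kcnj6 left of it with little spread, whereas for 33 genes the points fall on both sides.

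Auxiliary subunits do not conduct but change the gating or traffic of the alpha subunits. Kcne1l, also known as Kcne5, encodes a small membrane-spanning subunit of the KCNE family and gave signals of 302, 337, 316 and 247 in medulloblastomas 1 to 4, with 1376 in the cerebellum. The tumours stood close together and all lay far below the cerebellum. The difference was -2.09 ± 0.32 on the log2 scale (limma, adjusted p = 0.0448). The size hardly moved when a tumour was left out, but the call did: the adjusted p was 0.0104 without medulloblastoma 1, 0.148 without 2, 0.0892 without 3 and 0.105 without 4, and over all alternatives it ran from 0.00283 to 0.148. Kcne1l is on the array with 1 named probe set, so no second reading of the gene was at hand.

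Of the other 10 genes tested in the auxiliary class, which includes the non-coding Kcnq1ot1, none was called. Kcnip1, a calcium-binding partner of A-type channels, read 251, 482, 525 and 315 against 861 (-1.13 ± 0.43; limma, adjusted p = 0.283), and its other bright probe set read 449, 356, 328 and 124 against 1015. Both bright probe sets were thus lower in every tumour. Kcnip2 of the same family read 94.2, 45.6, 56.0 and 173 against 219, also below in every tumour. Kcnip3, which also acts in the nucleus as a repressor, read 581, 660, 744 and 668 against 671, with no separation, while its second probe set read 900, 200, 283 and 557 against 135 and disagreed with the first. Kcnmb4, the neuronal beta subunit of the large-conductance calcium-activated channel, read 1333, 1268, 1143 and 1179 against 1590, lower in each tumour, with a difference of -0.36 ± 0.24. The oxidoreductase-like beta subunits Kcnab1 and Kcnab2 and the subunits Kcnip4, Kcne4 and Kcnmb2 had differences between -0.37 and 0.33 at their brightest probe sets. There Kcnmb2 alone of these was below the cerebellum in every tumour. Its other bright probe set was also below in every tumour, at 176, 43.2, 76.6 and 125 against 352 (-1.59). A probe set of Kcnip4 about as bright as its brightest read 280, 352, 196 and 314 against 381, below in every tumour (-0.40). At the dimmest bright set of Kcnip4 the tumours were on both sides (-0.18). The other bright sets of Kcnab1 (-0.47) and Kcnab2 (-0.82) were below in every tumour but medulloblastoma 1. The non-coding Kcnq1ot1 read 3199, 1264, 801 and 1135 against 756, above in each tumour with medulloblastoma 1 highest, a difference of 0.85 ± 0.62. Its next probe set, about as bright, read 3530, 924, 846 and 632 against 956, with medulloblastoma 1 alone above. The remaining probe sets of Kcnq1ot1 with a mean of at least 100 were above in every tumour, by 0.74, 1.41 and 1.89 on average. At the first of these medulloblastoma 4 was level with the cerebellum, at 337. The antisense Kcnmb4os2 read 344, 305, 359 and 412 against 396.

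Of 11 inward rectifier genes tested none was called, with a median of -0.25 and a range from -1.51 to 1.65, and the ends of that range were subunits of the same kind of channel. Kcnj3, Kcnj6 and Kcnj9 encode GIRK1, GIRK2 and GIRK3, which assemble into potassium channels opened by G-protein-coupled receptors; Kcnj6 is the gene mutated in the weaver mouse, which loses cerebellar granule neurons. Kcnj6 had tumour signals of 264, 260, 267 and 314, with the cerebellum at 844. All 4 tumours were at least 2-fold below it, with a difference of -1.51 ± 0.32 (limma, adjusted p = 0.105; with a tumour left out, 0.0350 without medulloblastoma 1, 0.270 without 2, 0.177 without 3 and 0.205 without 4). Kcnj9 read 245, 203, 242 and 300 against 56.4. All 4 were at least 2-fold above, with a difference of 1.65 ± 0.44 (adjusted p = 0.153; 0.0813 to 0.319 with a tumour left out). Kcnj3 read 502, 403, 274 and 496 against 458, within the range of the tumours (-0.16 ± 0.39). Its other bright probe sets differed by -0.08, -0.97 and -0.22. The one at -0.97 read 213, 175, 176 and 159 against 382, lower in every tumour. The fourth GIRK gene, Kcnj5, was too dim to test, at 78.8, 49.3, 149 and 121 against 80.9.

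**Figure D2:**
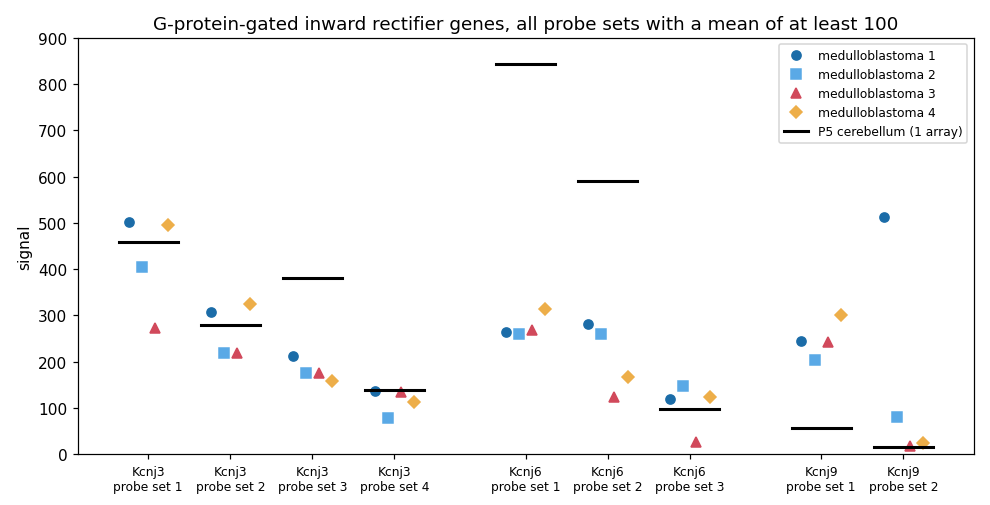
Signals (y axis, linear) of every probe set of Kcnj3, Kcnj6 and Kcnj9 with a mean of at least 100; points are the 4 tumours and black lines the 1 cerebellum array. Probe sets 1 and 2 of Kcnj6 lie below the cerebellum in each tumour and probe set 3 does not, and probe set 2 of Kcnj9 is high in medulloblastoma 1, at 513.

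The other probe sets qualify this contrast. A second bright probe set of Kcnj6 read 281, 260, 124 and 166 against 589, again lower in each tumour, whereas another, with a mean near the minimum of 100, read 118, 146, 26.3 and 124 against 97.0. The second bright probe set of Kcnj9 read 513, 80.7, 16.5 and 24.1 against 14.7, so most of its excess was in medulloblastoma 1 and the hmk tumours were near the cerebellum. With all probe sets of a gene averaged, the differences were -0.87 for Kcnj6 and 0.97 for Kcnj9, of the same signs and not called.

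The ATP-sensitive channels pair Kcnj8 or Kcnj11 with the sulphonylurea receptors Abcc9 or Abcc8. Kcnj11 read 843, 1234, 1847 and 727 against 2656, below in each tumour (-1.26 ± 0.46; limma, adjusted p = 0.270), and its second probe set was also lower (-0.70). Kcnj8, a gene of pericytes and smooth muscle, read 193, 132, 372 and 37.0 against 245 and varied 10.1-fold among the tumours. Abcc9 was below the cerebellum in each tumour, at 261, 254, 360 and 176 against 452, and Abcc8 was on both sides, at 449, 494, 388 and 307 against 329. Beside Kcnj8 and Abcc9, the summed signal of 11 endothelial and pericyte markers, Abcc9 among them, was 4646 to 6437 in the tumours and 11962 in the cerebellum, with 10 of 11 lower in every tumour, none called and none under a mean of 100; their part in the result was not tested.

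Kcnj10 encodes the glial channel that clears potassium around neurons; like several genes below that lie outside the naming rule, it was chosen after its values were seen. It read 719, 970, 1252 and 645 against 699, so the tumours spanned the cerebellum (0.30 ± 0.38). The 10 astrocyte and Bergmann glia markers, none of them under a mean of 100, summed to 30425 to 36938 in the tumours and 74626 in the cerebellum, with 7 of 10 lower in every tumour, 2 of them called, and 2 (Slc1a2 and Aldoc) higher in every tumour. The list thus went both ways, and its part in the Kcnj10 signal was not tested. Kcnj16, its partner in glia, read 75.5, 237, 219 and 238 against 219, and its other bright probe set 38.3, 222, 172 and 197 against 29.1, above in every tumour, so that the probe sets differed in sign. Kcnj9 and Kcnj10 are neighbours among the protein-coding genes of the RefSeq table, as are Kcnj6 and Kcnj15, and the differences within each pair were 1.65 and 0.30, and -1.51 and -0.57. Kcnj4 read 14.2, 169, 168 and 191 against 84.6, low in medulloblastoma 1 alone. Kcnj12 was high in the ken tumours, at 223 and 231 against 51.4 and 70.2 in the others and 125 in the cerebellum. Kcnj13 and Kcnj15 had differences of -0.47 and -0.57.

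Tandem-pore channels carry the leak current of resting cells. None of the 9 genes tested was called, and their differences ran from -2.53 to 1.62. Kcnk13 encodes a leak channel that microglia use, and read 37.4, 287, 298 and 438 against 46.9. It was high in 3 tumours and at the cerebellum's level in medulloblastoma 1, which left a difference of 1.62 ± 0.95 (limma, adjusted p = 0.447); without that tumour it was 2.22 (adjusted p = 0.0267), and the range with a tumour left out was 0.0267 to 0.616. Averaged with its dim second probe set it was 0.58. The 10 microglia and macrophage markers, none under a mean of 100, summed to 20048 to 26316 in the tumours against 6518, with 9 of 10 above in every tumour and 4 called higher. Medulloblastoma 1 had the lowest of those tumour sums. Among the tumours 4 of the 10 markers (C1qb, Lyz2, P2ry12 and Trem2) were lowest there and 2 (Csf1r and Ctss) were highest there. Lyz2 had the largest shortfall, at 4794, 10855, 9653 and 8148 against 755 in the cerebellum. Trem2 read 90.1, 236, 371 and 361 against 51.7, and P2ry12 read 153, 269, 469 and 350 against 282. The part of these cells in the Kcnk13 signal was not tested. Kcnk6, another leak channel, read 244, 212, 354 and 239 against 223.

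Kcnk16, a leak channel gene best known from the pancreas, read 33.5, 142, 37.0 and 17.6 against 423. The tumours were all at least 2-fold lower, but 3 of them read near the constant of 32 added to the signals, and the difference, -2.53 ± 0.85 (adjusted p = 0.248), ran from -3.06 to -1.62 with a smaller and a larger constant. Kcnk3, an acid-sensitive leak channel, read 423, 82.2, 48.5 and 136 against 34.1, and Kcnk12 read 208, 82.8, 36.8 and 197 against 33.5. Both were above in each tumour, by 1.30 ± 0.93 and 1.14 ± 0.85, and medulloblastoma 3 was near the cerebellum for both. With all its probe sets averaged Kcnk3 differed by 0.29. Kcnk1, a widely expressed leak channel, read 3135, 1927, 1448 and 1511 against 1830, with the cerebellum inside the tumour range. Kcnk2, a stretch-sensitive channel, read 520, 532, 598 and 290 against 930 and Kcnk10, its relative, 450, 320, 290 and 316 against 530, both below in each tumour. Kcnk15 read 175 and 182 in the ken tumours, 19.4 and 29.7 in the hmk tumours, and 115 in the cerebellum.

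**Figure D3:**
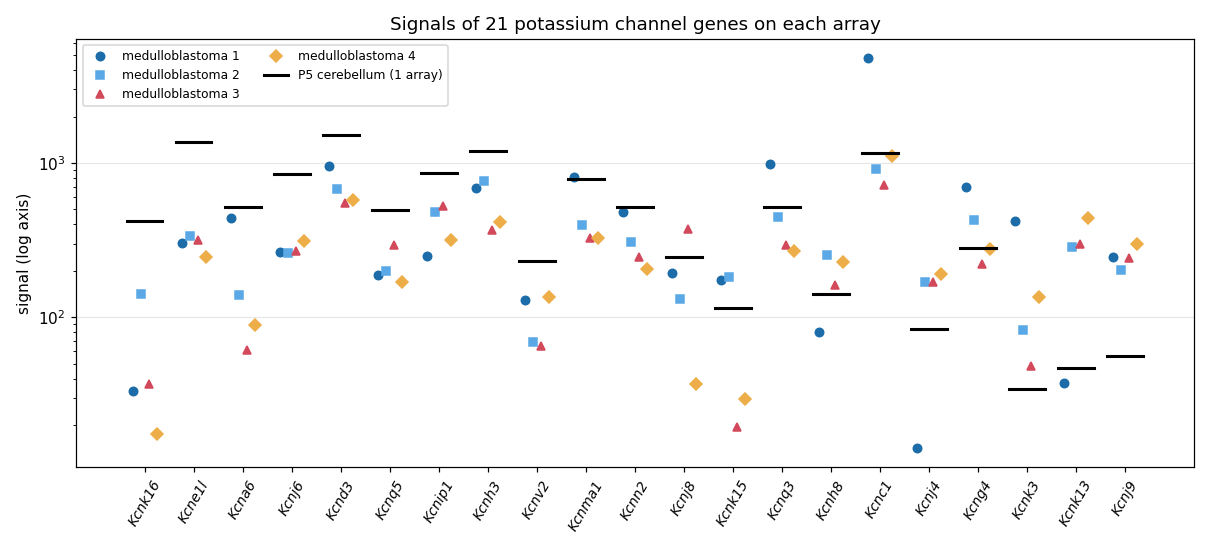
Signals (y axis, log scale) of the 21 genes named by the rule on each array, ordered by their log2 difference; points are the 4 tumours and black lines the 1 cerebellum array. The tumours of Kcne1l and Kcnj6 cluster below the line, while Kcnc1, Kcnk3 and Kcnj4 each have medulloblastoma 1 apart from the others.

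Voltage-gated alpha subunits of the delayed-rectifier and A-type families had a median of -0.39 over 10 genes tested, none called, with 4 below the cerebellum in every tumour and 1 above. Kcnd3, an A-type subunit, read 964, 677, 552 and 574 against 1521. All 4 were lower (-1.14 ± 0.35; limma, adjusted p = 0.210), as they were at its second probe set (-0.50). With a tumour left out the adjusted p was 0.0279 without medulloblastoma 1, 0.419 without 2, 0.329 without 3 and 0.369 without 4, and with all probe sets averaged the difference was -0.60. Its relative Kcnd2, the main A-type subunit of granule neurons, read 1973, 1124, 819 and 897 against 1681, higher than the cerebellum in medulloblastoma 1 and lower in the rest. Kcnd1 read 214, 152, 200 and 235 against 339 and was lower in each tumour at all 3 bright probe sets. Kcna6, a subunit of axonal channels, read 441, 140, 61.0 and 88.6 against 517, a difference of -1.66 ± 0.82 that was -0.76 and -0.09 at its other bright probe sets and -0.84 with all averaged. Kcna7, a gene of muscle, read 124, 83.0, 218 and 229 against 55.5, above in each tumour. Kcna4 was below in each tumour (-0.44), and Kcna3 (-0.35) and Kcna2 (0.27) were not on 1 side. At the dimmest bright probe set of Kcna2 every tumour was lower (-0.79), and at its others the tumours were on both sides.

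Modifier subunits, which are silent alone, had 4 genes tested and none called. Kcnv2 read 129, 68.8, 64.7 and 136 against 231, lower in each tumour (-1.05 ± 0.61). Kcng4 read 696, 427, 220 and 276 against 280, with both ken tumours above. Kcns2 ran the other way, at 314 and 371 in the ken and 732 and 717 in the hmk tumours against 601. Kcng2 differed by 0.02.

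KCNQ subunits carry the M-current that steadies neurons, and 2 were tested. Kcnq5 read 188, 200, 295 and 169 against 494, lower in each tumour (-1.13 ± 0.42; limma, adjusted p = 0.272), and its second bright probe set read 240, 115, 38.9 and 19.0 against 520, lower as well. Kcnq3 read 986, 446.5, 295 and 269 against 522, above the cerebellum in medulloblastoma 1 alone (-0.24 ± 0.62). In the ether-a-go-go families Kcnh3 read 691, 760, 368 and 414 against 1195 and was lower in each tumour (-1.12 ± 0.43; adjusted p = 0.284), whereas another bright probe set read 382, 397.5, 587 and 458 against 274, in the opposite direction, and the mean of all was -0.29. Kcnh2, which encodes the ERG channel, was nearly level, at 551, 480, 493 and 513 against 536. Kcnh1 read 992, 501, 248 and 434 against 423 (0.18). Its other bright probe set read 185, 165, 127 and 38.5 against 319 (-1.24), lower in every tumour. Kcnh8 read 80.2, 253, 163 and 228 against 141.

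Channels opened by calcium or sodium had 5 genes tested, none called, and all 5 had their highest tumour signal in medulloblastoma 1. Kcnma1, the large-conductance calcium-activated channel of Purkinje cells and others, read 816, 395.5, 325 and 325 against 790 (-0.83 ± 0.49), with its other bright probe sets at -1.73, -0.43 and 0.81 and the mean of all at -0.39. Kcnn2, a small-conductance channel, read 481, 309, 245 and 205 against 521, below in each tumour (-0.76 ± 0.46). Kcnt1, opened by sodium, read 1754, 753, 424 and 588 against 541. Kcnn1 and Kcnu1 differed by -0.03 and 0.11.

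The tumours differed among themselves in these genes. The median SD of log2 signal over the 4 tumours was 0.54 for the 57 channel genes and 0.31 for all genes tested, with lower signals for the channel genes (median of gene means 352 against 581). Medulloblastoma 1 had the highest tumour signal for 27 of the 57 genes, or 47.4%, against 30.9% of all genes, and was at least 2-fold above each other tumour for 8, or 14%, against 2.6%. Medulloblastoma 3 was the lowest for 29, or 50.9%, against 26.1% of all genes. Medulloblastoma 1 was the lowest for 9 (32.8% of all genes), medulloblastoma 2 for 9 (17.3%) and medulloblastoma 4 for 10 (23.9%), and the highest signal was in medulloblastomas 2, 3 and 4 for 8, 12 and 10 genes (20.6%, 23.8% and 24.8% of all genes). These counts are descriptions, and genes are not independent replicates.

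**Figure D4:**
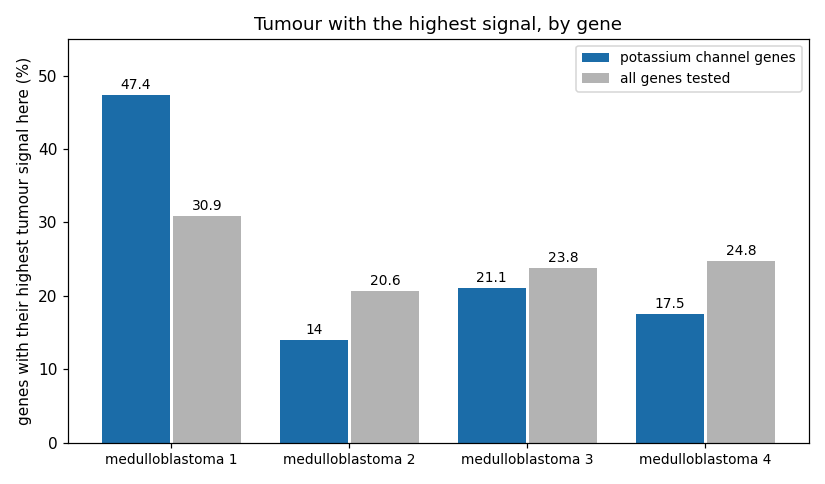
Share of genes whose highest tumour signal was in each tumour (y axis, percent), for the 57 potassium channel genes (blue) and all 14109 genes tested (grey). Medulloblastoma 1 holds 47.4% of the channel genes and 30.9% of all genes.

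The 8 genes far higher in medulloblastoma 1 at their brightest probe sets were Kcna1, Kcna6, Kcnc1, Kcnk3, Kcnma1, Kcnq1ot1, Kcnq3 and Kcnt1. Some other probe sets averaging at least 100 went the other way. Medulloblastoma 1 was the lowest tumour at the dimmest such sets of Kcna1 (65.3), Kcna6 (71.6) and Kcnq3 (118). The other tumours read 96.2 to 126, 162 to 202 and 127 to 186 there. Medulloblastoma 1 was not the highest at further sets of Kcna6 (183 against 280) and Kcnma1 (163 against 259). At the remaining such sets of Kcna1, Kcnma1, Kcnq1ot1 and Kcnt1 it was the highest. Kcnc1, a delayed rectifier that lets neurons fire fast, read 4774 in medulloblastoma 1, 922, 722 and 1112 in the other tumours, and 1158 in the cerebellum. At this probe set medulloblastoma 1 alone was above the cerebellum, and the difference over 4 tumours, 0.24 ± 0.85, became -0.34 without it. The other bright probe sets differed in their side of the cerebellum. One read 2620, 986, 689 and 817 against 550.5 and the dimmest 79.3, 222, 277 and 330.5 against 42.0, both above in every tumour, and another read 1047, 507, 557 and 469.5 against 646, above in medulloblastoma 1 alone. Medulloblastoma 1 was thus the highest tumour at 3 of 4 probe sets and the lowest at the dimmest, and with all probe sets averaged the difference was 0.70. Kcna1, a subunit of axonal and terminal channels, read 2397, 1073, 528 and 706 against 856.

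Among the tumours, all 9 mature granule neuron markers measured, 8 of 9 Purkinje cell markers and 6 of 8 interneuron markers were highest in medulloblastoma 1. The granule neuron list summed to 51974 in medulloblastoma 1, 26497, 15029 and 18751 in the others and 19829 in the cerebellum. The Purkinje cell markers (9 measured) summed to 32015 there, 7780 to 18728 in the others and 36448 in the cerebellum, and the 8 interneuron markers to 4654, 1727 to 2736 and 8169. The 9 oligodendrocyte lineage markers summed to 41147 there, 20564 to 24895 in the other tumours and 21058 in the cerebellum, a sum led by Mbp. Of these, 4 were highest in medulloblastoma 1 and 3 (Olig1, Pdgfra and Sox10) lowest. The 8 granule neuron precursor markers summed to 52310 there, 60512 to 65710 in the other tumours and 45443 in the cerebellum, with 5 lowest in medulloblastoma 1 and 2 (Pax6 and Zic1) highest. None of these markers had a mean under 100. Medulloblastoma 1 also had the highest ratios of 3' to 5' signal, 1.45 for actin and 0.946 for Gapdh, where the remaining arrays ran from 1.21 to 1.35 for actin and from 0.731 to 0.824 for Gapdh. The part of these cells and of RNA quality in the channel signals was not tested.

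**Figure D5:**
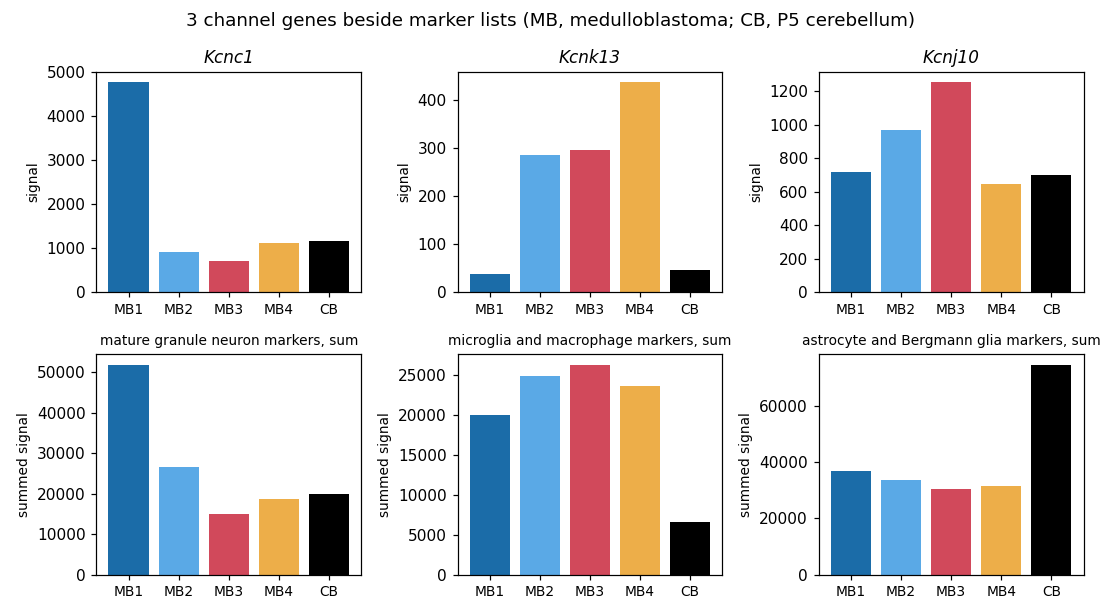
Signals of Kcnc1, Kcnk13 and Kcnj10 (top, linear, from 0) above the summed signals of the mature granule neuron, microglia and astrocyte marker lists (bottom) on the 5 arrays; each bar is 1 array. Kcnc1 and the granule neuron sum are both highest in medulloblastoma 1. Kcnk13 and the microglia sum are both lowest among the tumours there, at 37.4 and 20048, but 2 microglia markers are highest there. Kcnj10 is at the cerebellum's level or above in the tumours apart from 645 in medulloblastoma 4.

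The title prefixes also divided some channel genes. For 8 genes, or 14%, both ken tumours lay above the cerebellum and both hmk tumours below it at the brightest probe set. The 8 genes were Kcna1, Kcnab1, Kcng4, Kcnj12, Kcnj13, Kcnk1, Kcnk15 and Kcnn1, and this split was seen for 3.57% of all genes. The reverse was seen for Kcns2 alone (3.11% of all genes). Other probe sets averaging at least 100 broke the split for Kcna1, Kcnab1 and Kcnk1. Medulloblastoma 2 was below the cerebellum there for Kcnab1 (275 against 283) and Kcnk1 (844 against 960). For Kcna1 medulloblastoma 4 was above at a set where it read 652 against 511. All tumours were below at the dimmest such set of Kcna1 (65.3 to 126 against 204), and its remaining set kept the split. Both ken tumours were at least 2-fold above both hmk tumours for Kcnj12 and Kcnk15 (1.34% of all genes), and for no gene at least 2-fold below (0.773%). The 4 genes at least 2-fold away in every tumour were also read within 1 prefix. Among the hmk arrays, which include the cerebellum, Kcne1l differed by -2.18, Kcnj6 by -1.45, Kcnk16 by -2.96 and Kcnj9 by 1.77. With the ken tumours and the same cerebellum these differences were -2.00, -1.58, -2.09 and 1.53. Each such fit takes its spread from 1 pair of tumours, so the counts of calls given below do not compare the strength of the differences. What the prefixes stand for is not given in the labels.

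A list of 32 genes that work with these channels but carry other symbols was read from the same fit, and 25 were tested. Of these 1 was called lower and 0 higher by limma (0.177% and 0.312% of all genes), and at an unadjusted p under 0.05 there were 4 lower and 0 higher (7.44% and 7.72%). In every tumour 9 lay below the cerebellum and 2 above (30.8% and 25.1% of all genes). Their median difference was -0.43, and that of all genes -0.07. Dlg2, a scaffold protein that clusters channels at synapses and axons, read 536, 591, 517 and 504 against 2383. The tumours were close together, and the difference was -2.09 ± 0.26 (limma, adjusted p = 0.0262; 0.00473 without medulloblastoma 1, 0.115 without 2, 0.0629 without 3 and 0.0840 without 4). Its relative Dlg4 read 366, 366, 596 and 548 against 893, and Dlg1 2509, 1803, 1382 and 1344 against 1329. Rest, a repressor of neuronal genes in other cells, read 120, 86.0, 222 and 198 against 665 (-1.95 ± 0.53; adjusted p = 0.163), at least 2-fold lower in each tumour. With all probe sets averaged its difference was -0.76 (adjusted p = 0.452). Its co-repressor Rcor1 was above the cerebellum in each tumour, at 1962, 1022, 1488 and 1424 against 902. Dpp6, an auxiliary subunit of A-type channels, read 1925, 1120, 549 and 955 against 2365, lower in each tumour like Kcnd3 and Kcnip1 (-1.17 ± 0.54; adjusted p = 0.358). Its relative Dpp10 was lower in 3 of 4, at 447, 205, 141 and 241 against 423. Stx1a, a release protein that binds voltage-gated channels, read 1120, 720, 951 and 582 against 1840 (-1.14 ± 0.37; adjusted p = 0.232).

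The 27 genes that were too dim to test had mean signals between 28.1 and 95.7. They were Kcna5, Kcnab3, Kcnc2, Kcnc4, Kcne1, Kcne2, Kcne3, Kcnf1, Kcng1, Kcnh5, Kcnh7, Kcnj1, Kcnj14, Kcnj2, Kcnj5, Kcnk4, Kcnk5, Kcnk7, Kcnmb1, Kcnmb4os1, Kcnn3, Kcnn4, Kcnq1, Kcns1, Kcns3, Kcnt2 and Kcnv1. Kcns3, a modifier subunit, read 10.04, 97.6, 12.2 and 52.9 against 253, and Kcnc4, a voltage-gated alpha subunit, 241, 60.6, 34.8 and 28.8 against 62.1. Kcnn4, a calcium-activated channel of blood and microglial cells, read 26.0, 65.4, 90.6 and 63.4 against 62.5. Signals this low have no detection call here and carry no statement of presence or absence.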

How the data were processed

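RNA from 4 medulloblastomas and 1 P5 cerebellum was measured on Affymetrix arrays. The deposited values are intensities on a linear scale, 1 per probe set and array, made by the authors with MAS5 for 4 arrays per the submitters' processing notes; the tool for medulloblastoma 3 is not given in the sources used here. Per the labels' protocols RNA was extracted with Trizol for all arrays but medulloblastoma 4, whose label names only the array maker's standard procedure. The mean without 2% of probe sets at each end was 500.002 on each array. The number of arrays limits the precision. Arrays were grouped by tissue and numbered in record order. Of 45101 probe sets, 34945 had 1 gene symbol, 932 several and 9160 none, and 64 were controls; the 167 Kcn probe sets all matched RefSeq by Entrez ID, with 0 symbols changed.

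The whole table was fitted with limma 3.58.1 in R 4.3.3 (lmFit, eBayes with a variance trend) on log2(signal + 32) of the brightest probe set per gene, for the 14109 genes averaging 100 or more over the arrays. P-values are two-sided, adjusted by Benjamini-Hochberg over all genes, with a threshold of 0.05; ± gives the standard error. The naming rule took called genes, genes at least 2-fold away in every tumour, the 2 largest differences of each class and the 6 largest SDs among tumours, and partner genes called or among the 4 largest differences. Any other gene was picked with its values in view. The genes and lists were chosen with earlier results of these data known.

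Alternatives were quantile or equal-median scaling, a constant of 8 or a larger one, no filter or a mean of at least 200, all probe sets averaged or x_at and s_at sets left out, no variance trend, arrays of 1 title prefix, and each tumour left out.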

Additional observations from a re-analysis of the deposited data

Results flagged for a closer look

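Of 25 named channel and partner genes, 2 had 1 tumour far from the other 3. The measure was that tumour's gap to its nearest neighbour divided by the range of the 4 tumours. Both were taken on the log2 scale of the fit, not on the linear signals quoted here. Chance gives about 1 in 20 for genes not chosen for their spread. Kcnj4 was named for its large SD among the tumours, so that rate does not apply to it. Kcnj4 read 14.2 in medulloblastoma 1, against 168 to 191 in the other tumours, and has 1 named probe set. Kcnj6 read 314 in medulloblastoma 4, against 260 to 267 in the others, a small gap beside the cerebellum's 844.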

How the results depend on the processing

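The number of potassium channel genes called, 1 in the reported fit, was 0 with equal medians, with no filter, with all probe sets averaged, without a variance trend and with the ken tumours, 9 with the hmk arrays alone, and 0 to 4 with a tumour left out; unadjusted, 5 to 16 genes passed 0.05. Genes at least 2-fold away in every tumour, 4 as reported, numbered 12 with the hmk arrays, 9 with the ken tumours and 5 to 8 with a tumour left out. Calls among the partner genes, 1 as reported, were 0 with all probe sets averaged, without a trend and with the ken tumours, 6 with the hmk arrays, and 0 to 3 with a tumour left out. Over all genes 69 were called as reported, and 26 with no filter, 16 with all probe sets averaged, 0 without a trend (2007 at an unadjusted p under 0.05), 1678 with the hmk arrays, 37 with the ken tumours and 0 to 831 with a tumour left out, the highest without medulloblastoma 1 and the 0 without medulloblastoma 4 (1702 unadjusted). Every call reported here thus rests on which tumours enter. Fewer tumours make the 2-fold count easier to reach by construction; the cause of the other changes was not tested. The median difference of the channel genes, -0.16, ran from -0.36 to 0.02.

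Small differences changed sign within 1 prefix: Kcnc1 was -0.36 and Kcng4 -0.16 with the hmk arrays, and Kcnj4 -0.27, Kcnk15 0.52 and Kcnq3 0.33 with the ken tumours. With a tumour left out Kcnc1 ran from -0.34 to 0.55. The signs of the other named genes held under every alternative in which they were tested. No paired analysis was possible because there is 1 cerebellum array and the labels give no replicate numbers. Signals near the constant of 32 set the limit for Kcnk16, Kcnk3, Kcnk12 and Kcnk13. Kcnj9, with the cerebellum at 56.4, also depended on the constant: its difference was 1.97 with 8 and 1.02 with the larger one.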
